A study of Mus musculus with 6 samples.

Results

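The acute phase proteins measured here were 10 genes of mouse liver: the serum amyloid A genes Saa1, Saa2, Saa3 and Saa4, the orosomucoid genes Orm1 and Orm2, haptoglobin (Hp), hemopexin (Hpx), lipocalin 2 (Lcn2) and serum amyloid P component (Apcs). They were followed through every probe set whose platform annotation gives 1 of these symbols, which were 12 of the 22626 probe sets for genes on the array. Saa1 and Saa4 had 2 probe sets each and the other genes 1 each. The study measured liver total RNA of Swiss-Webster mice, an outbred strain, on 6 Affymetrix expression arrays. A pair of arrays came from mice fed fraction 1 of Boswellia serrata, extracted with hexane, as 1% of the diet for 21 days, and another pair from mice fed fraction 2, extracted with methanol, at the same dose and for the same time. The remaining pair came from mice on the control diet. The labels give no sex, age or composition of the fractions, and do not say whether an array holds 1 animal or a pool, so a p-value speaks only of the spread between the arrays of a diet, which may be technical.

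Acute phase proteins are plasma proteins, made mostly by hepatocytes, whose synthesis shifts during infection, tissue injury and other inflammatory states. Interleukin 6, interleukin 1 and tumour necrosis factor, released largely by macrophages, act on hepatocytes through STAT3, NF-kB and the C/EBP factors, and the messenger RNAs of Saa1 and Saa2 respond most steeply. Boswellia serrata, the source of Indian frankincense, yields a gum resin long used in traditional medicine against inflammation.

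No acute phase gene rose or fell past an adjusted p of 0.05 with limma in any of the 3 comparisons. The largest log2 difference was that of Lcn2, whose signals on both fraction 1 arrays exceeded those on both control arrays, with 1361 ± 460 array units after fraction 1 and 263 ± 16.3 on the control diet (SD, n = 2 each). Saa4 stood lower on both fraction 1 arrays in both of its probe sets. Saa1 (1450788_at) and Saa2 differed more between the fraction 1 arrays than between the mean log2 levels of any diets. Between the control arrays they differed by only 0.06 and 0.32 on the log2 scale. Orm1 and Hp were close to level over all 6 arrays.

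The arrays had median signals of 139.2 to 167.2 array units, the deposited linear intensities, and their small number sets the precision, with a standard error of 0.25 for the median probe set on the log2 scale. The actin control probe sets, whose 3'/5' ratio reflects RNA integrity, gave 2.13 to 2.32 after fraction 1, 2.16 to 2.64 after fraction 2, and 2.21 and 3.87 on the control diet, the higher one in control replicate 2. Scan batch 2 held fraction 2 replicate a and control replicate 1, and scan batch 1 the other 4 arrays. Within a batch, fraction 2 is therefore set against control as 1 array against 1, and fraction 1 against control rests on control replicate 2 alone. Hepatocyte markers were strong on every array, with summed signals of 130471 to 146244 array units after fraction 1, 119050 to 127163 after fraction 2 and 150318 to 163134 on the control diet. None of the 8 measured hepatocyte markers passed the test in any comparison (2, 5 and 1 had an unadjusted p under 0.05 in the comparisons of fraction 1 with control, fraction 2 with control and the 2 fractions), but their sums did not overlap between either fraction and the control diet. These sums keep the deposited scaling. For Alb, the log2 difference from control was -0.24 after fraction 1 and -0.42 after fraction 2. It was -0.06 and -0.03 after quantile normalization, and -0.21 and -0.30 with median centring. Of the 8 markers, 3 lay above 0 and 5 below after fraction 1, and 1 above and 7 below after fraction 2. In such bulk RNA, fewer cells of a type, less RNA per cell and the scaling of the arrays cannot be told apart.

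Saa1 and Saa2 encode the main inducible serum amyloid A proteins, small apolipoproteins carried on high-density lipoprotein. They lie next to each other on chromosome 7, between Saa4 and Hps5. RefSeq's promoter windows on build GRCm38.p6, from 250 bases before the start of each gene to 50 after it, were Saa1 at chr7:46742931-46743230 (minus strand) and Saa2 at chr7:46751583-46751882 (plus strand). They are shown because the levels of both genes followed each other over the arrays, and capitals mark matches to TTNNGNAA, a binding motif of C/EBP factors, on either strand.
Saa1: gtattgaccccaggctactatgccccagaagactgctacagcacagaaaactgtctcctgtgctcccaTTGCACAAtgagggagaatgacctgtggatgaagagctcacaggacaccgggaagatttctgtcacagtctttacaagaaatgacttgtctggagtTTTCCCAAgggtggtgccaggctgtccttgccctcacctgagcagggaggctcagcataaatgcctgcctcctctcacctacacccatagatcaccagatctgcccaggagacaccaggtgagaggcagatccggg
Saa2: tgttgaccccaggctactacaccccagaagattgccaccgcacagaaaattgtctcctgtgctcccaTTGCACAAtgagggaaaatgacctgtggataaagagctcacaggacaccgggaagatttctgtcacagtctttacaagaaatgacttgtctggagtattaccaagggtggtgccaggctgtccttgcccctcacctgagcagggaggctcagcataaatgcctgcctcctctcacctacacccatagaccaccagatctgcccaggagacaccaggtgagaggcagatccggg
The 2 windows were identical at 287 of 301 aligned positions, or 95.3%. Saa1 held 2 C/EBP matches and Saa2 held 1. Over all 32851 RefSeq promoter windows of this length, 40.7% hold at least 1 such match.

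Saa1 probe set 1450788_at had 1028.7 and 206.0 array units on fraction 1 replicates a and b, 758.5 and 3440.1 on fraction 2 replicates a and b, and 599.7 and 624.5 on control replicates 1 and 2. The highest level was thus on fraction 2 replicate b and the lowest on fraction 1 replicate b, with the control arrays almost equal. Both fraction 2 arrays exceeded both control arrays, while the fraction 1 arrays lay on either side of them. In order of mean log2 level came fraction 2, control and fraction 1, and no neighbours in that order differed beyond their spread. The log2 difference, here and below on the scale of log2(signal + 16), was -0.38 for fraction 1 against control (95% interval -2.16 to 1.39, adjusted p = 0.905 with limma). For fraction 2 against control it was 1.38 (-0.39 to 3.16, adjusted p = 0.769), and 0.30 without fraction 2 replicate b. Within scan batches 1 and 2 it was 2.43 and 0.33. For fraction 1 against control, it was 0.73 without fraction 1 replicate b and -1.50 without replicate a, so 1 array decided its sign.

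The second probe set annotated as Saa1, 1419075_s_at, had 410.9 and 164.0 array units after fraction 1, 311.1 and 1653.0 after fraction 2, and 383.1 and 444.1 on the control diet. Again fraction 2 replicate b was highest and fraction 1 replicate b lowest, and the 3 groups overlapped. The transcript behind it in the annotation is that of Saa2 in RefSeq, and its suffix marks probes that match several related transcripts, so it cannot be given to 1 of the 2 genes. Saa2 itself, probe set 1449326_x_at, had 212.8 and 57.6 array units after fraction 1, 202.6 and 414.2 after fraction 2, and 212.0 and 269.3 on the control diet. Its probes are also of a type that may cross-match. As for Saa1, fraction 2 replicate b was at the top and fraction 1 replicate b at the bottom, while the order of the 4 arrays between them differed.

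For Saa2, the log2 difference was -0.97 for fraction 1 against control (95% interval -2.16 to 0.21, adjusted p = 0.5 with limma), but -0.16 without fraction 1 replicate b and -1.79 without replicate a. Between fraction 1 and fraction 2 it was -1.24 (-2.42 to -0.06, adjusted p = 0.602), and -0.42 without fraction 2 replicate b. The intervals of all 3 probe sets reached beyond 1 on the log2 scale in 1 direction or the other in each comparison, so sizeable differences could not be told from none at this number of arrays. Over the 6 arrays the 2 Saa1 probe sets had r = 0.96 with each other, and Saa1 probe set 1450788_at had r = 0.89 with Saa2. These correlations are descriptions across arrays of 3 diets, and cross-matching probes may share signal.

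**Figure D1:**
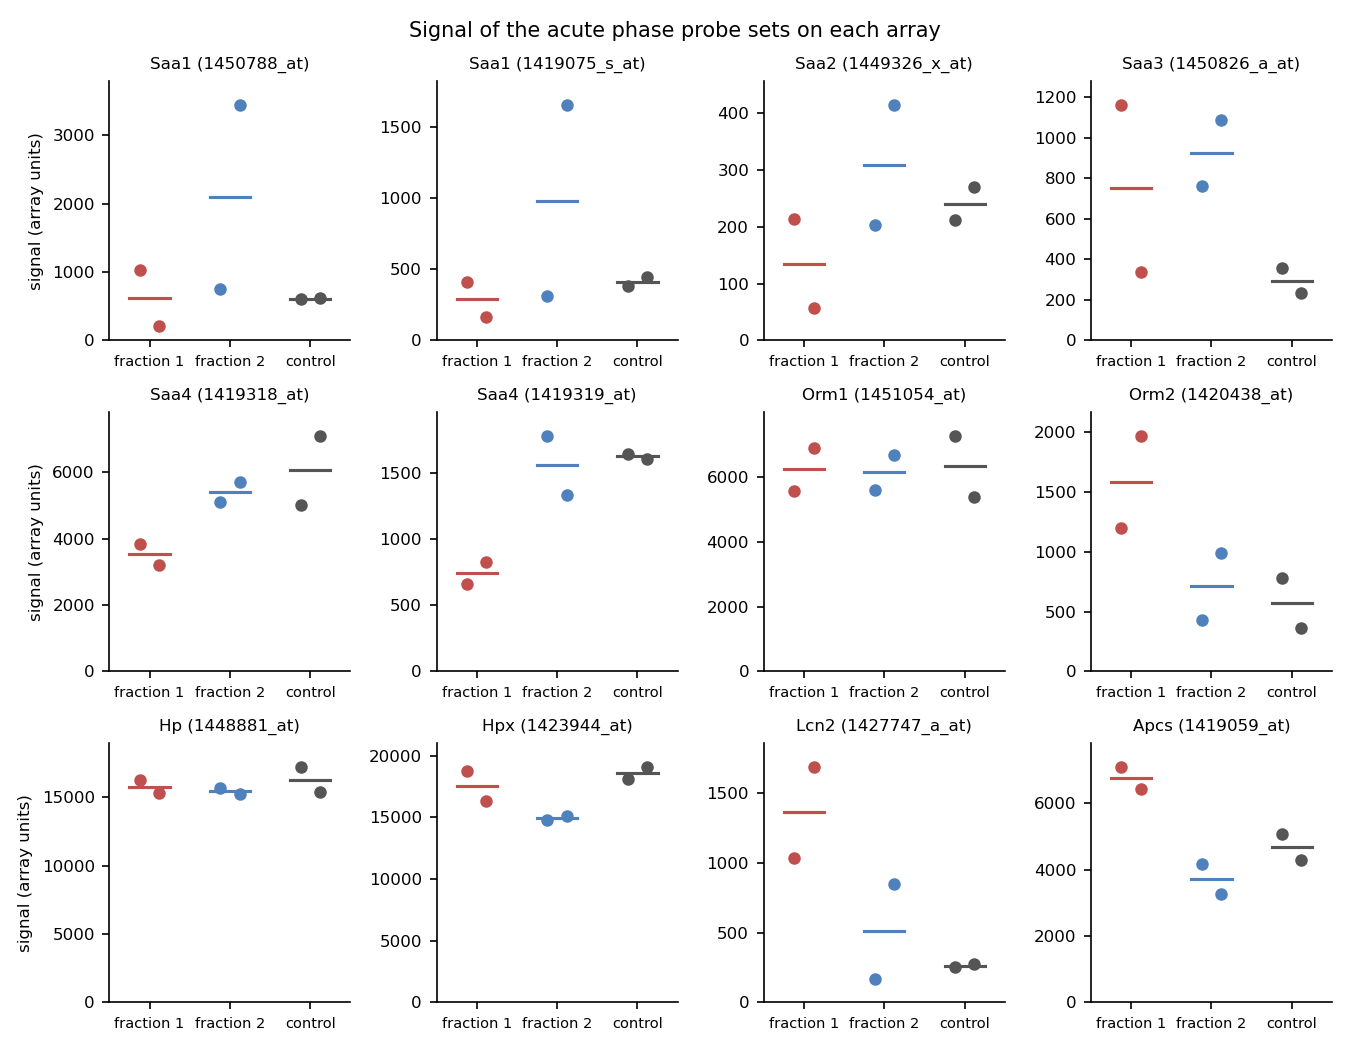
Signal of the 12 acute phase probe sets on each array, in array units on linear axes that start at 0, with 1 panel per probe set, points for arrays and a bar for the mean of each diet (fraction 1, fraction 2, control). The 2 arrays of a fraction lie far apart in the panels of Saa1, where fraction 2 read 758.5 and 3440.1, and close together in that of Hp.

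Saa3 is the serum amyloid A of mouse macrophages and adipocytes and is also induced in liver, while Saa4 is known as the constitutive form. They lie beside Saa1 on chromosome 7, in the order Saa3, Saa4, Saa1, Saa2. The RefSeq promoter windows (GRCm38.p6) were chr7:46715627-46715926 for Saa3 and chr7:46732554-46732853 for Saa4, both on the minus strand. They are shown because the mean levels of these neighbours stood on opposite sides of control after fraction 1, with the same motif in capitals.
Saa3: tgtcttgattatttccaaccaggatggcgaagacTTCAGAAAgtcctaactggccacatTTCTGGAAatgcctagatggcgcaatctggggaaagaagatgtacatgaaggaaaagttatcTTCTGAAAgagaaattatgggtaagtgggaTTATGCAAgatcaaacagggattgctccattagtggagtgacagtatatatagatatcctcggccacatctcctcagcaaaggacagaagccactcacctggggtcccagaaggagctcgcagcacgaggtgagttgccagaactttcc
Saa4: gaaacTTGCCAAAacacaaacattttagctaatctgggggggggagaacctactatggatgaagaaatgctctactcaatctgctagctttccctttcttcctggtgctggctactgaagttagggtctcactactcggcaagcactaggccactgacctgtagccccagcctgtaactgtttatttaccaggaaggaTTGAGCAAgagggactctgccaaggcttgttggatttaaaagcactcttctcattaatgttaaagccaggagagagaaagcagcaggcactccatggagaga
Saa3 held 4 matches and Saa4 held 2. Aligned with the Saa1 window, the Saa3 window was identical at 54.2% of positions and the Saa4 window at 50.7%.

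Saa3 (1450826_a_at) had 1161.0 and 339.1 array units on fraction 1 replicates a and b, 762.7 and 1089.4 on the fraction 2 arrays, and 356.6 and 232.2 on the control arrays. Both fraction 2 arrays and fraction 1 replicate a lay above both controls, and fraction 1 replicate b lay between them. Against control, the log2 difference was 1.61 for fraction 2 (95% interval 0.48 to 2.74, unadjusted p = 0.0109, adjusted p = 0.554 with limma). It was 2.15 within scan batch 1 and 1.06 within scan batch 2, and blocking on scan batch gave an adjusted p of 0.376. For fraction 1 against control the difference was 1.09 (-0.04 to 2.22, adjusted p = 0.428), and 0.22 without fraction 1 replicate a. In order of level came fraction 2, fraction 1 and control, and the fractions did not differ beyond their spread (-0.52, -1.65 to 0.61). Of 12 Kupffer cell and macrophage markers, 0 passed with limma in any comparison, while 2, 0 and 2 had an unadjusted p under 0.05 in the comparisons of fraction 1 with control, fraction 2 with control and the 2 fractions. Their summed signal was 9250 and 9804 array units after fraction 1, 9999 and 10965 after fraction 2, and 10352 and 11430 on the control diet. For fraction 1 against control, 3 of the 12 markers lay above 0 and 9 below, and for fraction 2 against control 6 and 6. The part of macrophages in the level of Saa3 was not tested. Of 4 adipocyte markers on the array, 1 was bright enough to be tested.

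Saa4 was read by 2 probe sets, both lower on each fraction 1 array than on every other array. Probe set 1419318_at had 3832.2 and 3213.5 array units after fraction 1, 5110.6 and 5716.8 after fraction 2, and 5012.7 and 7087.8 on the control diet. Probe set 1419319_at had 657.0 and 827.6 after fraction 1, 1776.2 and 1332.7 after fraction 2, and 1641.4 and 1605.5 on the control diet. For the second, the log2 difference of fraction 1 against control was -1.12 ± 0.21 (SE; 95% interval -1.60 to -0.64). Its adjusted p of 0.0644 with limma was the smallest of any acute phase probe set in the comparison and missed the threshold. For the first it was -0.76 (-1.20 to -0.32, adjusted p = 0.143), and -0.93 when blocked on scan batch (adjusted p = 0.0581). It was -1.01 without control replicate 1, which leaves control replicate 2, the array with the highest actin ratio. Within scan batch 1 the values were -1.11 for 1419319_at and -1.01 for 1419318_at.

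Between the fractions, Saa4 stood at -1.04 (95% interval -1.52 to -0.57, adjusted p = 0.238 with limma) in 1419319_at and at -0.62 (-1.06 to -0.18, adjusted p = 0.48) in 1419318_at. Fraction 2 and control, neighbours in the order of levels, overlapped in both probe sets, with differences of -0.08 (-0.55 to 0.40) and -0.14 (-0.58 to 0.30). With fraction 1 the lowest of the 3 diets in both probe sets, Saa4 and Saa3 lay on opposite sides of control there.

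**Figure D2:**
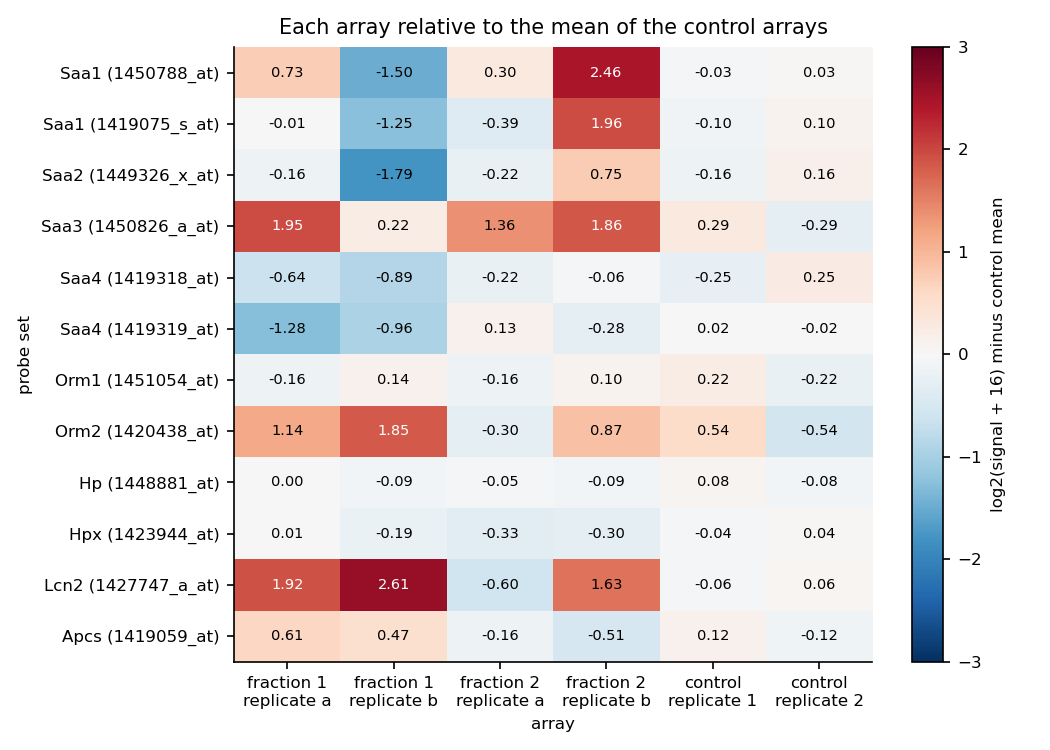
Log2(signal + 16) of each array minus the mean of the 2 control arrays, with probe sets in rows and arrays in columns (fraction 1, fraction 2, control), red above and blue below the control mean. Saa1 probe set 1450788_at runs from -1.50 on fraction 1 replicate b to 2.46 on fraction 2 replicate b, while Lcn2 and Orm2 are above 0 on both fraction 1 arrays and Saa4 below 0.

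Orm1 and Orm2 encode alpha-1-acid glycoproteins, plasma carriers of basic and lipophilic drugs, and flank Orm3 on chromosome 4. Orm1 (1451054_at) had 5585.8 and 6916.4 array units after fraction 1, 5592.9 and 6698.9 after fraction 2, and 7271.3 and 5390.1 on the control diet. The control arrays enclosed all 4 others. Its log2 difference was -0.01 for fraction 1 (95% interval -0.44 to 0.42) and -0.03 for fraction 2 (-0.47 to 0.40) against control, which leaves room for differences of up to about those bounds.

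The promoter window of Orm2 in RefSeq (GRCm38.p6) was chr4:63362199-63362498 on the plus strand. It is shown with its 2 C/EBP matches in capitals because Orm2 followed Lcn2 over the arrays, at r = 0.90.
Orm2: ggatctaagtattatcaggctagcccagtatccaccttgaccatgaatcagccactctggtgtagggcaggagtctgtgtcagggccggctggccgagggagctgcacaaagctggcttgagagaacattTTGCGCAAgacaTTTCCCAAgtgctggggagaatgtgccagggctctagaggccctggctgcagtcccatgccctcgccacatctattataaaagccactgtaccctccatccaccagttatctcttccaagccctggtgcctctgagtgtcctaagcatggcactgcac
Orm2 (1420438_at) had 1197.4 and 1967.9 array units on fraction 1 replicates a and b, 431.2 and 993.2 on the fraction 2 arrays, and 784.3 and 363.9 on the control arrays. The fraction 1 arrays were the 2 highest of the 6, and fraction 2 and control overlapped. Against control, the log2 difference of fraction 1 was 1.49 ± 0.46 (SE; 95% interval 0.44 to 2.54, adjusted p = 0.216 with limma). It was 2.03 within scan batch 1 and 1.16 when blocked on chip lot. Against fraction 2 it was 1.21 (0.16 to 2.26, adjusted p = 0.574), 0.62 within scan batch 1. For fraction 2 against control it was 0.28 (-0.76 to 1.33, adjusted p = 0.901), but 1.41 within scan batch 1 and -0.84 within scan batch 2. The arrays of scan batch 2 and batch 1 thus disagreed in sign for fraction 2, and the part of scan batch in the spread of Orm2 was not tested.

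Hp binds free haemoglobin, Hpx binds free haem, and both spare the tissues from iron-driven oxidation. Hp (1448881_at) ran from 15285.7 to 16265.7 array units after fraction 1, from 15239.3 to 15664.0 after fraction 2 and from 15362.8 to 17205.4 on the control diet. All groups overlapped. Its log2 differences of -0.04 for fraction 1 (95% interval -0.30 to 0.21) and -0.07 for fraction 2 (-0.33 to 0.18) against control had the narrowest intervals among the members together with those of Hpx.

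Hpx (1423944_at) had 18769.0 and 16332.3 array units after fraction 1, 14804.3 and 15124.0 after fraction 2, and 18087.8 and 19092.2 on the control diet. The fraction 2 arrays were the 2 lowest. Against control, the log2 difference of fraction 2 was -0.31 (95% interval -0.57 to -0.06, unadjusted p = 0.0228, adjusted p = 0.648 with limma), with -0.34 and -0.29 within scan batches 1 and 2. It was -0.06 after quantile normalization. Among hepatocyte markers, Alb stood at -0.42 (adjusted p = 0.494) and Ttr at -0.47 (adjusted p = 0.347) in the same comparison. Both stood at -0.03 after quantile normalization, while Alb stayed at -0.30 with median centring. The lower level of all 3 genes was thus nearly absent under quantile normalization. The part of scaling in the value of Hpx was not tested.

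Lcn2 encodes lipocalin 2, which withholds iron from bacteria by binding their siderophores, and is made by stressed hepatocytes as well as by neutrophils. Its promoter window in RefSeq (GRCm38.p6) was chr2:32387690-32387989 on the minus strand. It is shown because Lcn2 had the largest log2 difference of the 12 probe sets, with its 1 C/EBP match in capitals.
Lcn2: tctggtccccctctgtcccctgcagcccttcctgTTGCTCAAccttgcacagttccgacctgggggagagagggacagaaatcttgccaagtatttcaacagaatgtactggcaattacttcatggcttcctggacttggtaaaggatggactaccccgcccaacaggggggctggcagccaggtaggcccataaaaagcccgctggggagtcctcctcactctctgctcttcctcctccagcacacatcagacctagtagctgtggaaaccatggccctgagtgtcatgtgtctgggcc
None of the 8 promoter windows found for the members held the 1 NF-kB pattern that was searched, on either strand. Of all windows, 4.79% hold that pattern. Other forms of the NF-kB site were not searched, so these windows are not shown to lack NF-kB sites. The STAT motif TTCNNNGAA, held by 8.3% of all windows, occurred in the window of Apcs alone. A match or its lack describes these letters in these windows.

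Lcn2 (1427747_a_at) had 1035.9 and 1686.6 array units on fraction 1 replicates a and b, 167.8 and 848.9 on fraction 2 replicates a and b, and 251.5 and 274.6 on control replicates 1 and 2. Both fraction 1 arrays were the highest, the control arrays were close to each other, and the fraction 2 arrays lay on either side of them. Against control, the log2 difference of fraction 1 was 2.26 ± 0.60 (SE; 95% interval 0.90 to 3.63), a 4.8-fold difference on this scale, with an adjusted p of 0.157 with limma. The wide gap between the fraction 2 arrays enters that spread: in a fit to the fraction 1 and control arrays alone, adjusted p was 0.0232, and without fraction 2 replicate a or b it was 0.0227 or 0.024. The difference was 2.20 within scan batch 1, 1.67 when blocked on scan batch (adjusted p = 0.181) and 1.38 when blocked on chip lot (adjusted p = 0.132).

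For fraction 2 against control, the log2 difference of Lcn2 was 0.52 (95% interval -0.85 to 1.88, adjusted p = 0.858 with limma), with 1.57 within scan batch 1 and -0.54 within scan batch 2. Between fraction 1 and fraction 2 it was 1.75 (0.38 to 3.11, adjusted p = 0.525), with 0.63 within scan batch 1. In order of level came fraction 1, fraction 2 and control. The neighbours fraction 2 and control overlapped, and fraction 1 lay above fraction 2 without overlap.

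Of 11 neutrophil markers on the array, 8 were bright enough to be tested and 0 passed with limma in any comparison, while 1 had an unadjusted p under 0.05 for fraction 1 against control and 0 in the other comparisons. Their summed signal was 1885 and 1514 array units after fraction 1, 1104 and 1217 after fraction 2, and 1144 and 1786 on the control diet, and no marker was listed at 0. S100a8, a defining marker too dim for the test, had 74.9 and 75.1 array units after fraction 1, 38.2 and 11.0 after fraction 2, and 10.6 and 14.0 on the control diet. S100a9, its partner and also too dim, had 74.8 and 79.9 after fraction 1, 71.4 and 23.3 after fraction 2, and 79.6 and 34.8 on the control diet, so the groups overlapped. For fraction 1 against control, 4 of the tested markers lay above 0 and 4 below, from -0.42 for Mmp8 to 1.26 for Cxcr2, with a median of 0.11 beside -0.03 over all genes. For fraction 1 against fraction 2, 8 lay above 0 and 0 below, with a median of 0.32 beside 0.02. For fraction 2 against control, 1 lay above 0 and 7 below, with a median of -0.19 beside -0.05. The part of neutrophils in the level of Lcn2 was not tested.

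Apcs encodes serum amyloid P component, a pentraxin that is a leading acute phase reactant in the mouse, and lies beside Crp on chromosome 1. Apcs (1419059_at) had 7084.1 and 6429.3 array units after fraction 1, 4168.4 and 3254.9 after fraction 2, and 5059.5 and 4272.3 on the control diet. The 3 diets did not overlap: both fraction 1 arrays were above the controls and both fraction 2 arrays below them. Against control, the log2 difference was 0.54 ± 0.17 for fraction 1 (SE; 95% interval 0.15 to 0.93, adjusted p = 0.235 with limma) and -0.33 ± 0.17 for fraction 2 (-0.72 to 0.06, adjusted p = 0.748). Both comparisons share the control arrays. Between fraction 1 and fraction 2 it was 0.87 (0.48 to 1.26, unadjusted p = 7.91e-04, adjusted p = 0.229), with 1.05 within scan batch 1. Against control it was 0.66 for fraction 1 within scan batch 1, and -0.39 and -0.28 for fraction 2 within scan batches 1 and 2.

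**Figure D3:**
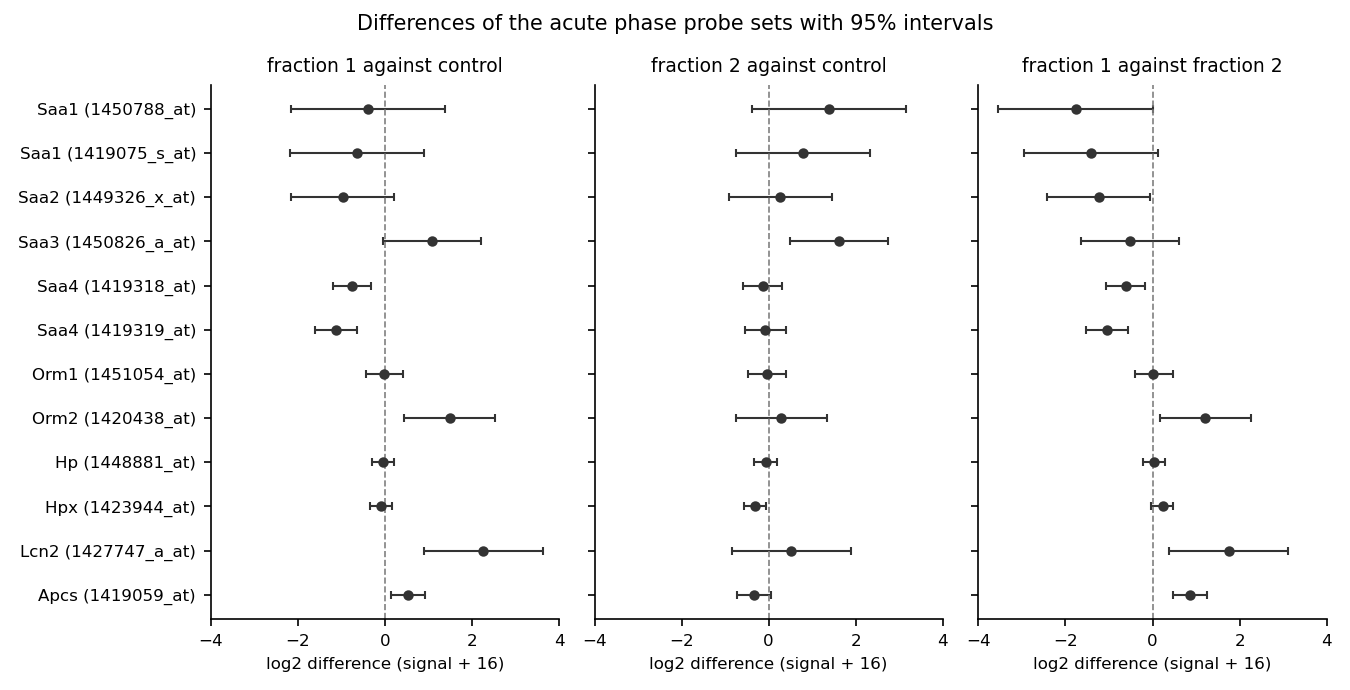
Log2 differences of the 12 acute phase probe sets with 95% intervals from limma, in the comparisons of fraction 1 with control, fraction 2 with control and the 2 fractions. The interval of Lcn2 after fraction 1 runs from 0.90 to 3.63 and those of both Saa4 probe sets lie below 0, while the intervals of both Saa1 probe sets include 0 in each comparison against control.

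Setting fraction 1 against control asks which acute phase genes responded to the hexane extract. Of the 12 probe sets, all of which passed the filter on dim signals, 0 passed an adjusted p of 0.05 with limma, where 0.712% of all 14755 tested probe sets did. At an unadjusted p under 0.05 there were 5, namely both of Saa4 and those of Orm2, Lcn2 and Apcs, where the share of all tested probe sets was 12.4%. The same 5 had no overlap between the groups, 3 higher and 2 lower, against 40.9% of all tested probe sets. The share without overlap was close to that background. The share at an unadjusted p under 0.05 was above its background, with both Saa4 probe sets among the 5, and was not tested. The median log2 difference over the 12 was -0.06, beside -0.02 over all tested probe sets.

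Setting fraction 2 against control puts that question to the methanol extract. Again 0 of 12 passed with limma, where 0.108% of all tested probe sets did, and 2, Saa3 and Hpx, had an unadjusted p under 0.05, against 6.95%. No overlap was seen for 4 probe sets, with Saa1 (1450788_at) and Saa3 higher and Hpx and Apcs lower, against 35.2% of all tested probe sets. The median was 0.12, beside -0.04 over all tested probe sets. Centring each array on its median moved that median of all tested probe sets by 0.12, so small differences of fraction 2 from control depend on the scaling.

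Setting fraction 1 against fraction 2 asks whether the extracts differed from each other. With limma 0 of 12 passed, where 0.0136% of all tested probe sets did, and 6 had an unadjusted p under 0.05, against 8.04%: both of Saa4 and those of Saa2, Orm2, Lcn2 and Apcs. Orm2, Lcn2, Apcs and Hpx were higher without overlap and both Saa4 probe sets lower, which makes 6 of 12 where the background was 46.8%. The median was -0.25, beside 0.02.

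The spread within a diet was itself uneven over the members. Between the 2 fraction 1 arrays Saa1 probe set 1450788_at differed by -2.23 on the log2 scale (replicate b minus a), a gap that 33 of 14755 tested probe sets, or 0.224%, matched or exceeded. Between the fraction 2 arrays it differed by 2.16 in the opposite direction, matched or exceeded by 31, or 0.21%, and between the controls by 0.06. Lcn2 had a gap of 2.23 between the fraction 2 arrays, matched or exceeded by 28 probe sets, or 0.19%, but 0.69 between the fraction 1 arrays and 0.12 between the controls. Saa1 and Lcn2 were thus both high on fraction 2 replicate b relative to replicate a, whereas on fraction 1 replicate b Lcn2 was the higher and Saa1 the lower. Saa2 and Saa3 differed by -1.64 and -1.73 between the fraction 1 arrays, like Saa1. Hp, Hpx and Apcs had gaps no larger than 0.36 in any diet.

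The median gap over all tested probe sets was 0.20 for fraction 1, 0.23 for fraction 2 and 0.34 for control. Of the 12 acute phase probe sets, 9 lay above it in fraction 1, 9 in fraction 2 and 4 in control. The fraction 2 arrays were also of different scan batches and chip lots, and so were the control arrays. The fraction 1 arrays shared a scan batch and differed in chip lot. The part of batch in these gaps was not tested.

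**Figure D4:**
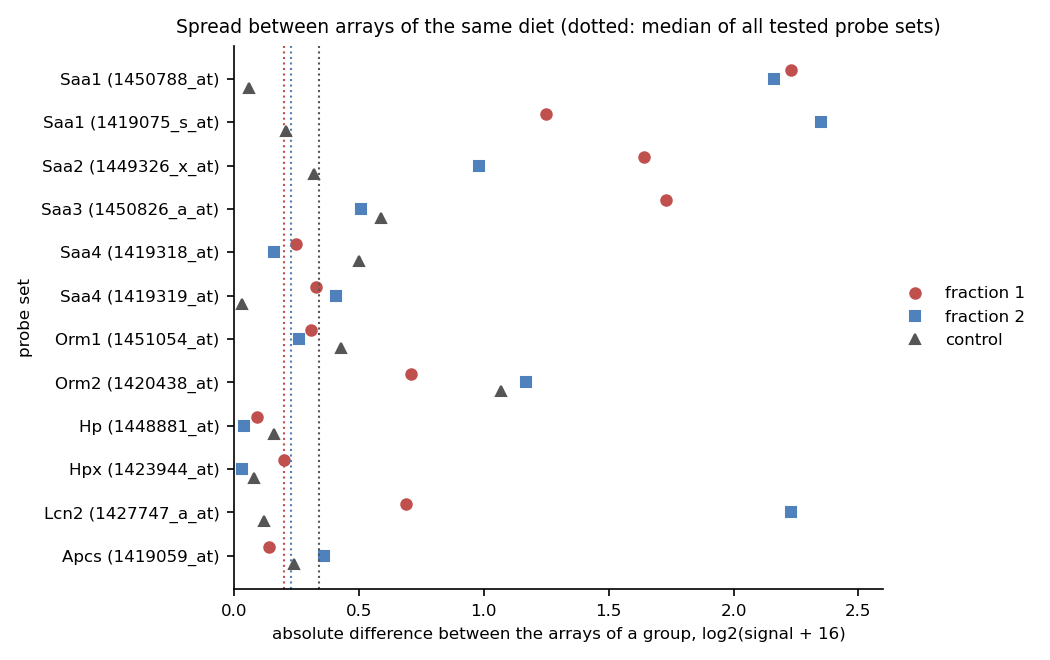
Absolute difference between the 2 arrays of each diet in log2(signal + 16) for the 12 acute phase probe sets, with circles for fraction 1, squares for fraction 2, triangles for control and dotted lines at the median gap over all tested probe sets. Saa1 reaches 2.23 and 2.16 in the fractions and 0.06 in control, and Lcn2 reaches 2.23 in fraction 2.

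The other genes of the response were read through 1 probe set each, the brightest, and 9209 genes were tested in all. After fraction 1, 0.738% of them passed with limma, 0.337% higher and 0.402% lower. After fraction 2, 0.119% passed, 0.0977% higher and 0.0217% lower, and between the fractions 0 of 9209 passed, with 733 at an unadjusted p under 0.05. The share of genes at an unadjusted p under 0.05 was 12.9% after fraction 1 and 7.23% after fraction 2, each set against control, and 7.96% between the fractions. Of 25 other positive acute phase proteins, which increase during inflammation, 1 rose after fraction 1, 0 fell and 24 did not pass, with a median of -0.26 beside -0.03 over all genes. At an unadjusted p under 0.05 there were 10, and over the list 7 lay above 0 and 18 below. The gene that rose was the metallothionein Mt1, which binds zinc. It had 19885.1 and 11764.5 array units after fraction 1, 7499.1 and 7970.6 after fraction 2, and 5210.2 and 2940.0 on the control diet. All 4 arrays of the fractions lay above both controls. Mt1 stood at 1.96 ± 0.30 (SE) after fraction 1 (adjusted p = 0.034 with limma) and at 0.98 after fraction 2 (adjusted p = 0.543). Its call held in 7 of 16 alternative fits, and its probe set can match related transcripts. Mt2, the neighbouring metallothionein, named after its values were seen, stood at 2.11 after fraction 1 (adjusted p = 0.075), and at 1.38 without control replicate 2. Without control replicate 1 it stood at 2.84, with the control then replicate 2 alone, the array with the highest actin ratio. Mbl1, also named after its values were seen, stood lower without overlap at -1.09 after fraction 1 (adjusted p = 0.0699 with limma). After fraction 2, 0 of the 25 passed and 8 had an unadjusted p under 0.05, with a median of -0.21. Between the fractions 0 passed, 5 had an unadjusted p under 0.05, and the median was 0.04.

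Of 13 negative acute phase proteins, which decrease during inflammation, 0 passed with limma in any comparison. At an unadjusted p under 0.05 there were 4 after fraction 1, 8 after fraction 2 and 2 between the fractions. After fraction 1, 10 of the 13 lay below 0, with a median of -0.24, and after fraction 2, 11 did, with a median of -0.38. Igfals, which stabilises insulin-like growth factors in plasma, had 1052.7 and 660.0 array units after fraction 1, 1212.4 and 1196.5 after fraction 2, and 1906.0 and 1462.2 on the control diet. It stood at -0.99 after fraction 1 (adjusted p = 0.142) and -0.47 after fraction 2 (adjusted p = 0.753). The thyroxine carrier Ttr stood at -0.30 and -0.47 in the same order, with adjusted p of 0.268 and 0.347, but at -0.03 in both comparisons after quantile normalization.

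Among the cytokines that drive the response, 5 of 13 on the array were bright enough to be tested and 0 passed with limma, nor did any have an unadjusted p under 0.05, with 0 in each comparison. Il1b, interleukin 1 beta, had 184.7 and 223.6 array units after fraction 1, 201.9 and 143.1 after fraction 2, and 216.0 and 244.3 on the control diet. Il6, interleukin 6, named after its values were seen, was too dim to be tested, at 30.6 to 76.6 array units over the 6 arrays. Of 22 receptors and signal transducers 0 passed with limma in any comparison, while 4, 3 and 4 had an unadjusted p under 0.05 in the comparisons of fraction 1 with control, fraction 2 with control and the 2 fractions. Their medians were -0.03, -0.08 and 0.05. Il6st, the signalling chain of the interleukin 6 receptor, had 614.2 and 586.8 array units after fraction 1, 741.3 and 744.6 after fraction 2, and 1069.9 and 1172.2 on the control diet. It stood lower without overlap after both fractions, at -0.88 (adjusted p = 0.0793) after fraction 1 and -0.58 (adjusted p = 0.543) after fraction 2. Socs3, the feedback inhibitor of that receptor, had 106.4 and 37.0 array units after fraction 2, against 197.4 and 213.4 on the control diet (-1.46, adjusted p = 0.512). Its difference was -0.85 without fraction 2 replicate b and -2.06 without replicate a. Il1r1, the interleukin 1 receptor, stood at -1.34 after fraction 2 (adjusted p = 0.456), and its partner Il1rap at -0.84 after fraction 1 (adjusted p = 0.171).

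Of 15 transcription factors of acute phase genes 0 passed with limma in any comparison, while 3, 0 and 3 had an unadjusted p under 0.05 in the comparisons of fraction 1 with control, fraction 2 with control and the 2 fractions. The 3 were Cebpd and Cebpb, higher after fraction 1, and Nr3c1, lower. Nr3c1 stood at -0.46 for fraction 1 against control (adjusted p = 0.383 with limma) and at -0.61 against fraction 2 (adjusted p = 0.498). Cebpd, the C/EBP factor most closely tied to inflammation, had 445.6 and 773.0 array units after fraction 1, 156.4 and 230.2 after fraction 2, and 166.7 and 182.6 on the control diet. Both fraction 1 arrays were above all others. It stood at 1.66 ± 0.30 (SE) for fraction 1 against control (adjusted p = 0.0542) and at 1.55 for fraction 1 against fraction 2 (adjusted p = 0.227). Cebpb, its partner, had 2749.2 and 3138.9 array units after fraction 1, 1583.4 and 1680.9 after fraction 2, and 1553.2 and 955.2 on the control diet. It stood at 1.26 ± 0.24 (SE) for fraction 1 against control (adjusted p = 0.0659 with limma). It passed in only 3 of 16 alternative fits. Among these were the fits blocked on scan batch (1.41, adjusted p = 0.0463) and on chip lot (1.31, adjusted p = 0.0484). Against control replicate 2 alone, the array with the highest actin ratio, it was 1.60, and against control replicate 1 alone 0.91. The medians of the list were -0.08 after fraction 1 and -0.03 after fraction 2.

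Of 20 receptors and clearance partners of the acute phase proteins, 1 rose after fraction 1 with limma and 19 did not pass. After fraction 2 and between the fractions 0 of them passed, with 3 and 2 at an unadjusted p under 0.05. The gene that rose was Blvrb, biliverdin reductase B, which acts in haem breakdown, with 3211.2 and 3782.9 array units after fraction 1, 2671.8 and 2491.3 after fraction 2, and 1620.8 and 1887.9 on the control diet. It stood at 0.99 after fraction 1 (adjusted p = 0.0498), a call that held in 2 of 16 alternative fits, and at 0.56 after fraction 2 (adjusted p = 0.543). Among cell type markers, 1 passed: the erythroid haem synthesis gene Alas2 fell by 1.66 after fraction 1 (adjusted p = 0.0384), with 793.0 and 723.3 array units after fraction 1, 2656.1 and 1502.2 after fraction 2, and 2243.8 and 2609.9 on the control diet. Its call held in 6 of 16 alternative fits. Of 3 erythroid markers on the array, Alas2 alone was bright enough to be tested. The dim Hba-a1 had 37.4 and 92.5 array units after fraction 1, 56.6 and 51.4 after fraction 2, and 51.4 and 99.0 on the control diet. Slc4a1, also dim, had 85.1 and 75.0 after fraction 1, 55.6 and 19.0 after fraction 2, and 89.0 and 108.4 on the control diet. Erythroid cells carry haemoglobin, the ligand of haptoglobin, and their part in the levels of the haem and haemoglobin carriers was not tested.

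**Figure D5:**
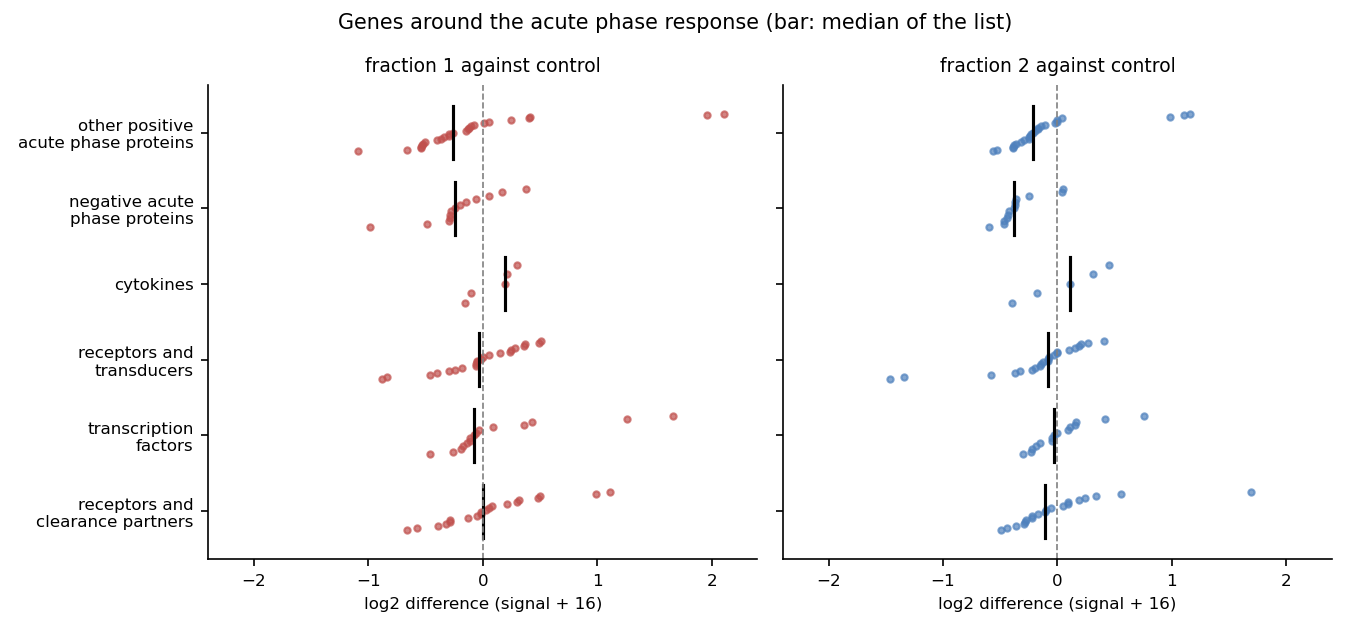
Log2 differences of single genes in 6 lists around the acute phase response, for fraction 1 against control and fraction 2 against control, with points for genes and a bar for the median of each list. Mt1 and Mt2 are at 1.96 and 2.11 after fraction 1, far from the list median of -0.26, and Cebpd and Cebpb at 1.66 and 1.26.

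The genes most like each member over the 6 arrays, by Pearson's r of log2(signal + 16) among 9199 other genes, are given as a description, since 6 arrays of 3 diets let many genes correlate closely. For Saa1 they were Baz2a (r = 0.972), Snx1 (0.961) and Tnxb (0.958), and for Saa4 they were Tmem19 (0.994), Prickle1 (0.993) and C8a (0.992), a component of the membrane attack complex. For Lcn2 they were Mpzl2 (0.997), Taf10 (0.986) and Malat1 (0.983), and for Orm2 they were Tph1 (0.990), Rwdd3 (0.989) and Tkfc (0.986). For Apcs they were Lama4 (0.993), Samm50 (0.989) and Rbbp6 (0.985), and for Hpx they were Dusp2 (0.997), Hpd (0.993) and Fance (0.981). No member was among these lists by construction. Between members, Saa4 (1419319_at) and Lcn2 ran opposite to each other at r = -0.87, Saa4 (1419318_at) and Orm2 at r = -0.85, and Saa1 (1450788_at) and Lcn2 had r = -0.06.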

How the data were processed

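Liver total RNA was measured on 6 arrays, 2 per diet, and the groups were taken from the sample titles. The deposited table holds the authors' linear signal intensity per probe set and array; the method that made it is not given in the sources used here. Trimmed means of 499.53 to 499.94 array units over the arrays show it as scaled, and it was used so. Scan batch and chip lot were read from the authors' experiment files. Of 22690 probe sets, 64 controls were left out. Symbols came from the platform annotation: 1 symbol for 20380 probe sets, several for 691 and none for 1606, controls included. The filter kept probe sets that reached the 40th percentile of an array on 2 or more arrays. Values were log2(signal + 16). All 6 arrays were fitted together in R 4.3.3 with limma 3.58.1 (lmFit, eBayes with a variance trend; 3 residual and 5.43 prior degrees of freedom), two-sided, with Benjamini-Hochberg adjustment over 14755 probe sets and a threshold of 0.05. The procedure was tested on simulated data. Members, lists and tests were chosen with earlier results of these data known. From each list, the genes past the threshold were named, otherwise a selection of up to 4 with the smallest p in either comparison with control. Mt2, Mbl1, Il6, S100a8, S100a9, Hba-a1 and Slc4a1 were chosen after their values were seen. Promoters came from RefSeq (GRCm38.p6) for 8 of 10 members. Alternatives changed normalization, pseudocount, filter, variance trend, blocks, the groups fitted, the arrays and the probe set of a gene. Figures used matplotlib 3.10.9.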

Additional observations from a re-analysis of the deposited data

Results flagged for a closer look

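Apcs (1419059_at) was singled out because both fraction 1 arrays lay above both control arrays while both fraction 2 arrays lay below them, at 7084.1 and 6429.3 array units after fraction 1, 4168.4 and 3254.9 after fraction 2, and 5059.5 and 4272.3 on the control diet. The difference between the fractions' effects was 0.87 on the log2 scale. The test of that difference did not pass (adjusted p = 0.229 with limma). Over the alternatives it ran from 0.69 to 1.05.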

How the results depend on the processing

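Of 642 values of the 36 acute phase differences under the alternatives, 590 counted as unchanged, 6 passed the threshold newly and 36 changed sign. The other 10 were values within scan batches that moved by more than the spread. In a fit, unchanged means the same direction and side of the threshold. Values within scan batches have no test, and counted as unchanged if they moved by less than the spread. Sign changes among these are therefore not in the 36. For fraction 1 against control, the count of acute phase probe sets called was 0 with all arrays, 1 (Lcn2) in the fit to the groups compared and 0 to 1 when 1 array was left out, with Saa4 (1419318_at) called without control replicate 1 and Lcn2 without either fraction 2 array. It was 0 for fraction 2 against control in every alternative. For 21 of the 36 differences the sign held in every fitted alternative.

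Most sign changes were of differences near 0. After quantile normalization Hp stood at 0.04 for fraction 1 and 0.16 for fraction 2 against control, and at -0.12 between fractions, Hpx at 0.01 for fraction 1 against control and Orm1 at -0.04 between the fractions. With median centring Hp stood at 0.04 for fraction 2 against control, and at -0.06 between fractions, Orm1 at 0.02, 0.08 and -0.06 in the 3 comparisons, and Saa4 (1419319_at) at 0.04 for fraction 2. With scan batch as a block Hp stood at 0.01 and Orm1 at 0.03 for fraction 1 against control. With chip lot as a block Hp stood at 0.01 for fraction 1, and for fraction 2 against control Lcn2 stood at -0.07, Orm2 at -0.33 and Cebpd at -0.21. The cause was not tested.

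With 1 array left out, differences for fraction 2 against control ran from -0.39 to 1.96 for Saa1 (1419075_s_at), -0.22 to 0.75 for Saa2, -0.39 to 0.11 and -0.28 to 0.13 for Saa4 (1419318_at and 1419319_at), -0.25 to 0.18 for Orm1, -0.30 to 0.87 for Orm2, -0.16 to 0.01 for Hp, -0.60 to 1.63 for Lcn2, -0.68 to 0.13 for Alas2 and -0.14 to 0.37 for Cebpd. For fraction 1 against control they ran from -1.50 to 0.73 for Saa1 (1450788_at), -0.23 to 0.21 for Orm1, -0.13 to 0.04 for Hp and -0.19 to 0.01 for Hpx. Between the fractions they ran from -1.39 to 0.34 for Saa3, -0.13 to 0.18 for Orm1 and -0.02 to 0.07 for Hp. A group left with 1 array was assumed to vary like the others. Without control replicate 1, the control was replicate 2 alone, the array with the actin ratio of 3.87.

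The replicate block of the letters a and b, in a fit to the fraction arrays, called 2 acute phase probe sets between the fractions, Apcs at 0.87 (adjusted p = 0.0387) and Orm2 at 1.21 (adjusted p = 0.0464), also Cebpd at 1.55 (adjusted p = 0.0308), and 75 probe sets in all against 2 without it. Deviations of same-lettered arrays correlated at 0.0301, so the letters are not shown to pair the arrays.

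Over all tested probe sets, 105 were called for fraction 1 against control, but 48 with median centring, 27 with no filter, 12 with no variance trend, 39 in the fit to the groups compared and 14 to 149 with 1 array left out. For fraction 2 against control 16 were called, but 10 with no filter, 2 with no variance trend, 10 with chip lot as a block, 9 in the fit to the groups compared and 3 to 28 with 1 array left out. Between the fractions 2 were called, but 0 with quantile normalization, median centring, a pseudocount of 1, no filter, no variance trend or scan batch as a block, 16 with chip lot as a block and 0 to 11 with 1 array left out.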
